A study of Homo sapiens with 18 samples.

Results

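Replication-dependent histone genes were followed in Caco-2 cells, a line from a human colon carcinoma with epithelial character, grown in riboflavin-free or in ordinary DMEM. The members were the probe sets whose annotation gave a single symbol of the H1, H2A, H2B, H3 or H4 clusters (H1-1 to H1-6 and names starting with H2AC, H2BC, H3C or H4C), at any signal. They numbered 51 of the 54613 probe sets tested and stood for 45 symbols, with 7 probe sets for H1, 11 for H2A, 15 for H2B, 8 for H3 and 10 for H4. The study held 18 arrays in 6 groups of 3, which were ribo deficient 24hr, ribo deficient 48hr and ribo deficient 72hr, and control 24h, control 48hr and control 72hr. All groups were the same unmodified cell line in medium with serum, penicillin and streptomycin. The labels say that dialysed serum was used where indicated, without naming the arrays concerned, and give no measure of the riboflavin left in the cells. The arrays were numbered so that each of 3 sets held all 6 groups once, and differences are given as riboflavin-depleted cells minus control cells within a set.

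Core histones H2A, H2B, H3 and H4 form the particle around which DNA is wrapped, and H1 binds the linker DNA between particles. Most mRNAs of these clustered genes are made in S phase and end in a stem-loop instead of a poly(A) tail. The stem-loop is bound by SLBP, while NPAT activates the genes' transcription. Array labelling of this kind ordinarily starts at the poly(A) tail, although the labels name only the manufacturer's protocol. With such labelling the probe sets report the less usual polyadenylated transcripts, and the stem-loop mRNA is not measured. In these bulk samples, fewer cells making a transcript and less transcript per cell cannot be told apart.

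The 5 genes that passed the test between the media are shown by the 250 bases before their transcription start. The members were chosen by family symbol and are related genes. The motif shares given below therefore describe that family and are not independent of the choice of members. Sequences and starts are RefSeq's on GRCh38.p14, each read 5′ to 3′ on the gene's own strand. H2BC12 lies at chr6:27146859-27147108 on the minus strand, H2BC5 at chr6:26157871-26158120 on the plus strand and H2AC6 at chr6:26123922-26124171 on the plus strand. H4C11 lies at chr6:27823842-27824091 on the plus strand and H2BC21 at chr1:149886683-149886932 on the minus strand. Capitals mark TATAAA, the TATA box, CCAAT, the CCAAT box, and TTTGCAT, the core of the octamer that POU factors bind, each on either strand.
H2BC12: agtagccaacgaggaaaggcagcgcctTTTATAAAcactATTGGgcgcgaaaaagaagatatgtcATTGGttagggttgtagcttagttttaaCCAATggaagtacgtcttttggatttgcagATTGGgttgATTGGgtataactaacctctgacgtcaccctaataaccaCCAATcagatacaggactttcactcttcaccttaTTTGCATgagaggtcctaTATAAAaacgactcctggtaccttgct
H2BC5: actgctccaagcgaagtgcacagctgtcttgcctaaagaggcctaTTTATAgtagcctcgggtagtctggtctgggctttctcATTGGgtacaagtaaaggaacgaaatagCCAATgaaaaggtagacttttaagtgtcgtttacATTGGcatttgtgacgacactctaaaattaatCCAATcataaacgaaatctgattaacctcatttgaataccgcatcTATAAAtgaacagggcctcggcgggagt
H2AC6: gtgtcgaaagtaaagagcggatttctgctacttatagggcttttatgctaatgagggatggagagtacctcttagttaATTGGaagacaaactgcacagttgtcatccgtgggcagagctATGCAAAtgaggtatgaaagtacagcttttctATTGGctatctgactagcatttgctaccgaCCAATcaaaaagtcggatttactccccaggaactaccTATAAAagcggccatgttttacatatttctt
H2BC21: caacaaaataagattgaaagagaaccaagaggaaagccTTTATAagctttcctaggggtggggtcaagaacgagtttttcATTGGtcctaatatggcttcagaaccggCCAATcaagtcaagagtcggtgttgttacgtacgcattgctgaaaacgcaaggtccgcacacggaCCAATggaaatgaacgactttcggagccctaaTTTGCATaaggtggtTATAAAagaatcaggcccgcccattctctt
H4C11: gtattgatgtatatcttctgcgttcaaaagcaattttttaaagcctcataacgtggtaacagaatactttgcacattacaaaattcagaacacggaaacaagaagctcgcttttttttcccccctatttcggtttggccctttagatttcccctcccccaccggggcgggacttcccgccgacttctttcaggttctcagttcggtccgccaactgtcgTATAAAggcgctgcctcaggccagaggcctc

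Of the 45 symbols, 40 matched a RefSeq promoter. TATAAA stood in 27 of these 40 (67.5%), against 11.1% of all 27305 promoters of the same length. CCAAT stood in 35 of 40 (87.5%), against 33.0% of all, and in 2 of the 7 H4 promoters. TTTGCAT stood in 16 of 40, against 3.98% of all. It was found in 6 of 8 H2A and 10 of 13 H2B promoters, and in none of the 6 H1, 6 H3 and 7 H4 promoters. Among the genes printed above, all 5 held TATAAA, all but H4C11 held CCAAT, and H2BC12, H2AC6 and H2BC21 held TTTGCAT. The H2AC6 window is shared with H2BC4, which is read in the other direction from a start 246 bases away. The pairs H2AC14 and H2BC14, H2AC17 and H2BC17, and H2AC15 and H2BC15 lie likewise, with starts 245, 240 and 194 bases apart, so that a motif in such a shared stretch is counted for both genes. These matches describe letters within the windows only.

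Across the arrays, 9 of 10 markers of the labelled cell type lay at or above the median level of the table. At or above it were also 5 of 8 fibroblast and 4 of 7 leukocyte markers. The summed signal of 10 colon epithelial markers was 21892.8 to 32256.9 on depleted arrays and 22316.3 to 35487.5 on control arrays, and none of the 10 was called in the averaged comparison. The summed signal of 8 fibroblast markers was 406.1 to 650.8 on depleted arrays and 498.7 to 798 on control arrays, with 1 called lower (PDGFRB). That of 7 leukocyte markers was 314.5 to 477.8 on depleted arrays and 238.4 to 431.4 on control arrays, and at 72 h the media were apart, at 350.2 to 407.9 on depleted arrays and 238.4 to 314.4 on control arrays. Among the 7, LYZ was called higher, and it was not called without the block. PTPRC, which defines leukocytes, had a mean signal of 6.6, and the part of these markers in the histone results was not tested. Set 2 stood apart, with median signals of 25.6 to 31.3 and maxima of 27380.2 to 31409.8, against medians of 18.4 to 23.3 and maxima of 6904.8 to 8574.5 in sets 1 and 3. All 6 arrays of set 2 lay above the other 12 for 1 member (H2AC25, 231681_x_at), against 1.88% of all probe sets, and below them for 2 (H2BC6 and H2BC9), against 1.01%.

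Averaged over 24, 48 and 72 h, probe sets for 3 H2B genes and 1 H2A gene were higher in depleted cells, and a probe set for 1 H4 gene was lower. On the higher side were H2BC5 with both of its probe sets, H2BC12, H2BC21 and H2AC6, at 1.43 to 1.89 times the control level of signal + 16. On the lower side was H4C11, at 0.587 times. As 16 was added to each signal before the log was taken, these folds and those below are ratios of signal + 16. The mean signal of H4C11 itself was 54.61 on depleted and 113.6 on control arrays. In all, limma called 6 of the 51 members (11.8%) at an adjusted p under 0.05, beside 4.55% of all probe sets. By direction, 5 members were higher, beside 2.65% of all, and 1 was lower, beside 1.9% of all. The median difference of the members was 0.05 on the log2(signal + 16) scale, with 30 of 51 above 0, and that of all probe sets was 0.01. When single arrays were omitted, the members' median lay between 0.0225 and 0.0872. At an unadjusted p under 0.05 stood 13 members and 17.1% of all probe sets. A fit without the sets as a block called 1 member, H2BC12, and 781 probe sets in all. Fits on only 2 sets called no member without set 1 or without set 3, beside 99 and 87 probe sets in all, and 5 members without set 2, beside 1278 probe sets in all.

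**Figure D1:**
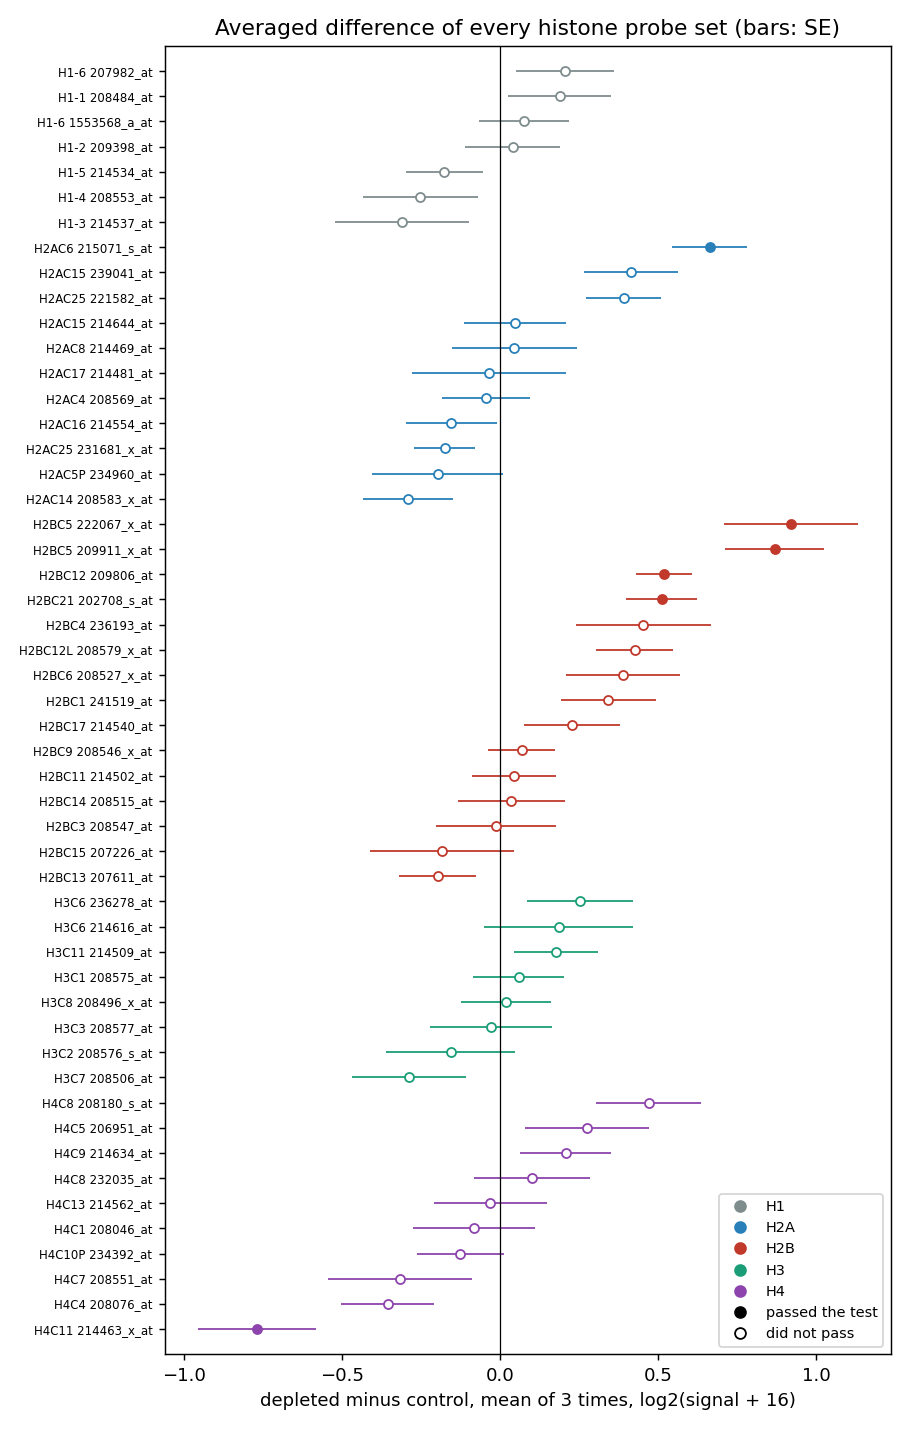
Averaged depleted minus control difference of all 51 histone probe sets on the log2(signal + 16) scale, grouped by class from H1 at the top to H4 at the bottom; bars are standard errors of the limma fit, and filled points passed the test. Of the 6 filled points, 4 are H2B, 1 is H2A and 1, H4C11, is H4 and lies below 0.

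H2BC12 (209806_at) codes for an H2B protein and is a gene of the chromosome 6 cluster. At 24 h its signal was 1380.1, 1223.8 and 1150.0 in depleted cells of sets 1, 2 and 3, against 1058.7, 991.4 and 729.0 in control cells. At 48 h it was 1563.8, 1531.9 and 1316.7 in depleted cells, against 1073.9, 968.0 and 744.0 in control cells. At 72 h it was 1133.4, 935.0 and 1078.5 in depleted cells, against 883.8, 765.6 and 647.4 in control cells. The media did not overlap at any of the 3 times, while the lowest depleted array of 72 h lay under the highest control arrays of 24 and 48 h. The averaged log2 difference was 0.52 ± 0.089 (SE), 1.43-fold, with a limma adjusted p of 0.00427, and depleted cells were higher in 9 of 9 differences within set and time.

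H2BC5, another H2B gene, had 2 probe sets, both with the suffix _x_at, which marks probes that may also match similar transcripts. With 222067_x_at the signal at 24 h was 325.4, 211.8 and 231.0 in depleted cells, against 216.8, 32.4 and 142.8 in control cells. The 48 h signals were 339.6, 151.8 and 349.7 in depleted cells, against 144.2, 160.6 and 106.5 in control cells. The 72 h signals were 273.7, 105.2 and 322.2 in depleted cells, against 176.3, 83.7 and 118.7 in control cells. The groups overlapped at each time, and set 2 at 48 h was the one pair in which the depleted array was lower. The averaged log2 difference was 0.92 ± 0.21 (SE), 1.89-fold, with a limma adjusted p of 0.0235. Of 18 fits that each omitted a single array, 6 no longer called it.

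The other H2BC5 probe set (209911_x_at) gave a like picture. At 24 h its signal was 311.6, 191.4 and 208.9 in depleted cells, against 246.6, 115.1 and 115.5 in control cells. After 48 h it stood at 396.0, 172.0 and 328.5 in depleted cells, against 186.7, 29.6 and 133.3 in control cells. After 72 h it stood at 240.8, 118.1 and 189.3 in depleted cells, against 175.7, 73.4 and 103.1 in control cells. Set 1 was the highest and set 2 the lowest array of every group, so the groups overlapped, but within each set the depleted array was the higher at every time. The averaged log2 difference was 0.87 ± 0.16 (SE), 1.83-fold, with a limma adjusted p of 0.00609. At 48 h alone the log2 difference was 1.42, with a limma adjusted p of 0.0730.

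H2BC21 (202708_s_at), an H2B gene of the chromosome 1 cluster, stood at low signals. At 24 h its signal was 67.8, 31.6 and 47.9 in depleted cells, against 39.0, 43.4 and 28.2 in control cells. At 48 h the values were 54.7, 62.3 and 55.3 in depleted cells, against 30.5, 30.0 and 27.6 in control cells. At 72 h the values were 71.9, 63.2 and 53.5 in depleted cells, against 35.1, 45.8 and 31.1 in control cells. The media were apart at 48 h and 72 h and overlapped at 24 h, where the depleted array of set 2 was the lower of its pair. The averaged log2 difference was 0.51 ± 0.11 (SE), 1.43-fold, with a limma adjusted p of 0.0186 and 8 of 9 pairs higher. Because 16 was added to each signal before the log was taken, folds of such low signals are understated.

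H2AC6 (215071_s_at) codes for an H2A protein and is the divergent neighbour of H2BC4. At 24 h its signal was 111.2, 148.6 and 68.7 in depleted cells, against 90.1, 52.6 and 45.5 in control cells. At 48 h it was 122.0, 153.5 and 93.1 in depleted cells, against 57.6, 52.0 and 33.4 in control cells. At 72 h it was 138.7, 99.0 and 104.1 in depleted cells, against 127.8, 97.4 and 69.3 in control cells. Depleted arrays lay above all control arrays at 48 h, and the groups overlapped at 24 h and 72 h. The averaged log2 difference was 0.66 ± 0.12 (SE), 1.58-fold, with a limma adjusted p of 0.00571, and depleted cells were higher in 9 of 9 pairs. By time the log2 difference was 0.66 at 24 h, 1.12 at 48 h and 0.21 at 72 h, and none of the 3 passed the test on its own. The neighbour H2BC4 (236193_at), named here after its values were seen, had a log2 difference of 0.45 ± 0.21 (SE) and a limma adjusted p of 0.295.

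H4C11 (214463_x_at), which codes for histone H4, was the one member called lower in the averaged comparison. At 24 h its signal was 34.3, 86.3 and 37.7 in depleted cells, against 60.0, 207.7 and 60.2 in control cells. The 48 h arrays read 56.1, 83.0 and 58.5 in depleted cells, against 88.8, 232.3 and 111.1 in control cells. The 72 h arrays read 36.8, 89.0 and 9.8 in depleted cells, against 72.0, 169.8 and 20.2 in control cells. Set 2 was the highest array of every group, the media were apart only at 48 h, and within each set the depleted array was the lower at every time. The averaged log2 difference was -0.77 ± 0.19 (SE), 0.587-fold, with a limma adjusted p of 0.0315. When single arrays were omitted in turn, 10 of 18 fits no longer called it, with limma adjusted p-values of 0.0106 to 0.0738 over the 18. It also lost its call when any of the 3 sets was left out. Without the block the limma adjusted p was 0.387. H4 genes code for nearly the same protein from similar sequences, and this probe set also has the suffix _x_at, so its assignment to H4C11 is uncertain.

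**Figure D2:**
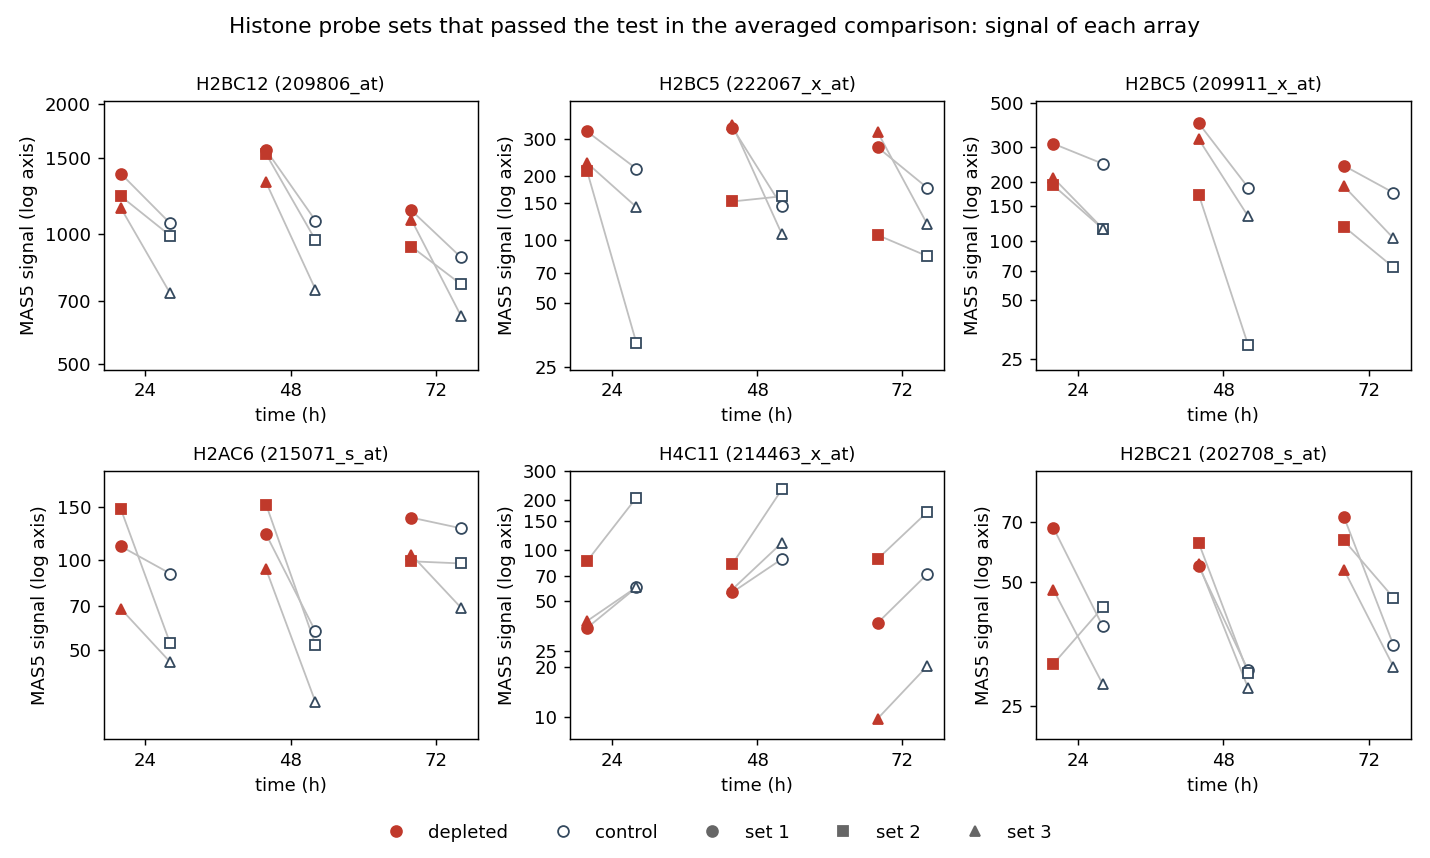
MAS5 signal on a log axis against time in hours for the 6 probe sets that passed the test, with 1 point per array, depleted left of control at each time; lines join the arrays of 1 set. Lines run down from depleted to control in 9 of 9 pairs for H2BC12, H2AC6 and the H2BC5 probe set 209911_x_at, in 8 of 9 for the other H2BC5 probe set and H2BC21, and up in 9 of 9 for H4C11.

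All 9 differences within set and time were higher in depleted cells for 3 members (5.88%), beside 1.94% of all probe sets, and lower for 1 member, beside 1.85%. No member had all 9 depleted arrays apart from all 9 control arrays, a pattern seen higher in 0.119% and lower in 0.0586% of all probe sets. The share of all probe sets with the media apart at a single time is not given here. Statements of overlap at single times therefore describe the printed signals only. Without the 9 _x_at probe sets, 3 of 42 members were called in the averaged comparison, all higher. Over all probe sets, those with _x_at included, 2.65% were called higher. The suffix _s_at, also for probes shared between transcripts, belongs to H2AC6 and H2BC21, so that H2BC12 was the only called member without either suffix.

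By class, H2B had the highest median difference. Its 15 probe sets had a median log2 difference of 0.34, with 12 above 0 and 4 called higher, beside 2.65% of all. H2BC12L (208579_x_at), a gene named for its likeness to H2BC12, had a log2 difference of 0.43 ± 0.12 (SE), higher in 8 of 9 pairs, and a limma adjusted p of 0.0661. H2BC6 had a log2 difference of 0.39 with a limma adjusted p of 0.289, and H2BC9 one of 0.07 with a limma adjusted p of 0.819. The remaining H2B probe sets, which lay below the median level of the table, ranged from -0.20 to 0.45.

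The 11 H2A probe sets had a median log2 difference of -0.03, with 5 above 0 and 1 called higher, beside 2.65% of all. The 2 probe sets of H2AC25, a gene outside the large chromosome 6 cluster, lay on opposite sides of 0. Its probe set 221582_at had a log2 difference of 0.39 with a limma adjusted p of 0.0836, and 231681_x_at one of -0.18 with a limma adjusted p of 0.391. The 10 H4 probe sets had a median of -0.06, with 4 above 0.

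In the averaged comparison no H1 or H3 probe set was called by limma, and none had an unadjusted p under 0.05. At single times none was called either, though some had an unadjusted p under 0.05. The 7 linker histone H1 probe sets had a median log2 difference of 0.04 and a range of -0.31 to 0.21. H1-2 (209398_at), a somatic linker histone, had a log2 difference of 0.04 ± 0.15 (SE) and a limma adjusted p of 0.935. The 8 H3 probe sets had a median of 0.04 and a range of -0.29 to 0.25, with both H3C6 probe sets above 0, at 0.19 and 0.25. All 6 called probe sets, 5 higher and 1 lower, were among the 22 members at or above the median level of the table, beside 1347 higher and 969 lower of all 27307 probe sets there. In that range 15 of 22 were above 0 with a median log2 difference of 0.14, beside 0.02 for all probe sets above that level. The 29 members below that level had a median of 0.02 with 15 above 0.

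**Figure D3:**
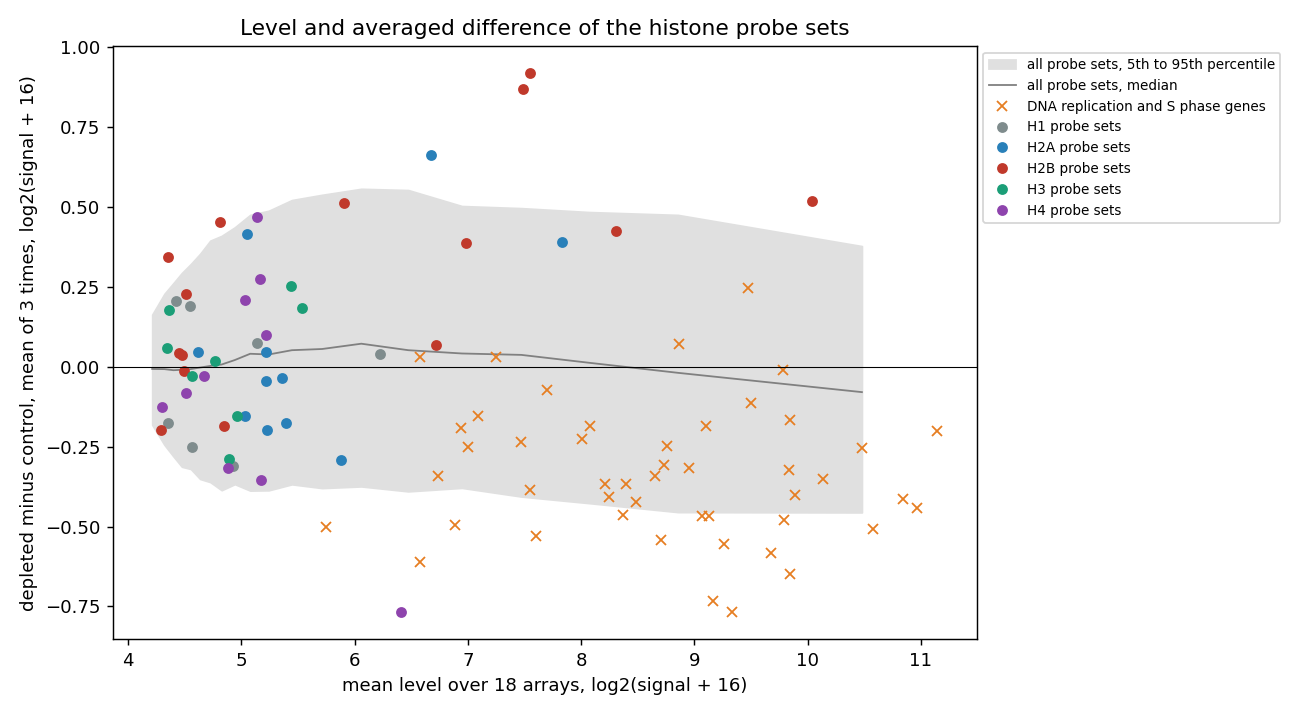
Averaged depleted minus control difference against the mean level over 18 arrays, both on the log2(signal + 16) scale, for the 51 histone probe sets by class and for 47 DNA replication and S phase genes; the grey band spans the 5th to the 95th percentile of all probe sets of like level. Among the probe sets that passed the test, those of H2BC5, H2AC6 and H2BC12 lie above the band and H4C11 below it, and 43 of the 47 replication genes lie below 0.

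Taken time by time, no member was called between the media by limma. At 24 h the count was 0 of 51, beside 0.375% of all probe sets, with 11 members and 11.4% of all at an unadjusted p under 0.05. At 48 h it was 0, beside 0.117% of all, with 9 members and 10.7% of all at an unadjusted p under 0.05. At 72 h it was 0, beside 4.16% of all, with 7 members and 16.3% of all at an unadjusted p under 0.05. The members' median log2 differences were 0.03, 0.18 and 0.10 at 24, 48 and 72 h, and those of all probe sets were -0.03, 0.06 and 0.00. At 24 h the members' median had no settled sign, lying between -0.0367 and 0.062 when single arrays were omitted. At 48 h H2BC12, H2BC5 (209911_x_at) and H2AC6 had adjusted p-values under 0.05 when the table was filtered at its median level, when 64 was added in place of 16 and when the variance prior followed the level, beside 189 of 27307, 335 and 332 probe sets in all.

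**Figure D4:**
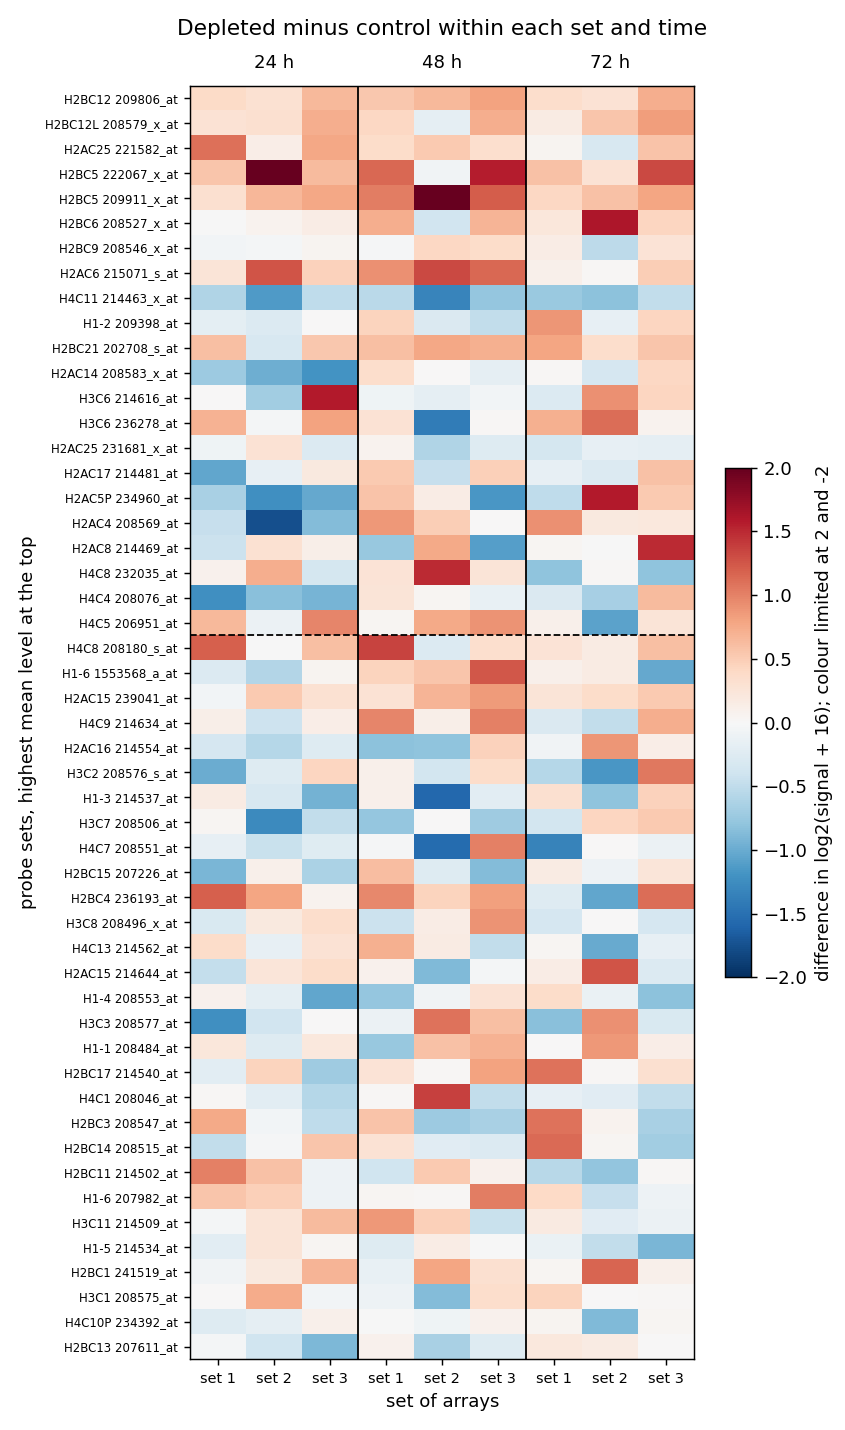
Depleted minus control differences of all 51 histone probe sets on the log2(signal + 16) scale, 1 column per set of arrays at each of 3 times; red is higher and blue lower in depleted cells, and the dashed line marks the median level of the table. Rows of 1 colour belong to H2BC12, H2AC6 and H2BC5 (209911_x_at) in red and to H4C11 in blue. Blue at 24 h in every set are also H2AC14, H2AC4, H4C4 and H2AC5P, among others.

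Over time, H2AC14 (208583_x_at), an H2A gene, rose in depleted cells. Its signal in depleted cells was 15.3, 16.1 and 6.7 at 24 h, 38.3, 91.5 and 55.2 at 48 h and 43.8, 74.0 and 52.9 at 72 h. In control cells it was 35.6, 47.3 and 35.8 at 24 h, 26.4, 90.9 and 65.0 at 48 h and 43.0, 98.1 and 35.9 at 72 h. The 3 depleted arrays of 24 h thus lay below every other array of this probe set, and the media overlapped at 48 h and 72 h. From 24 to 72 h the log2 difference in depleted cells was 1.34 ± 0.25 (SE), 2.53-fold on signal + 16, with a limma adjusted p of 0.0111. Without the added 16, the mean signal in depleted cells was 12.7 at 24 h and 56.9 at 72 h, so that fold is understated. H2AC14 was the only member called in that comparison (1.96%), beside 2.66% of all probe sets and 1.16% for the higher direction. The call was lost when the depleted array of set 1 at 72 h, or that of set 2 or set 3 at 24 h, was left out, and without the block (limma adjusted p 0.115). Between 24 and 72 h in depleted cells, 4 members and 14.9% of all probe sets had an unadjusted p under 0.05. The depletion effect of H2AC14 at 72 h minus that at 24 h was 0.99 with a limma adjusted p of 0.236. Between the media at 24 h its log2 difference was -0.96 with a limma adjusted p of 0.127.

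H2AC4 (208569_at), another H2A gene, had low signals at the same point. In depleted cells at 24 h its signal was 5.3, 12.9 and 5.6, against 13.2, 82.2 and 23.3 in control cells. Each depleted array was the lower of its pair, most of all in set 2. Its log2 difference at 24 h was -1.03 with a limma adjusted p of 0.0944, and the effect at 72 h minus that at 24 h was 1.47 with a limma adjusted p of 0.0620. H4C4 (208076_at), named here after its values were seen, had a log2 difference of -1.0 at 24 h with a limma adjusted p of 0.127. The change of the depletion effect between 24 and 72 h was called by limma for no member, beside 0.947% of all probe sets, with 5 members and 12.4% of all at an unadjusted p under 0.05.

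In control cells, no member differed between 72 and 24 h by limma, beside 0.247% of all probe sets, with 8 members and 9.98% of all at an unadjusted p under 0.05. The members' median log2 difference was -0.17, and that of all probe sets was -0.02. The smallest p belonged to H2AC5P, a pseudogene symbol, with a log2 difference of -1.28 and a limma adjusted p of 0.208, followed by H2AC25 (221582_at) with 0.71 and a limma adjusted p of 0.229. The comparisons at single times share arrays with the averaged one, and the depleted arrays of 24 h serve both the comparison of the media at 24 h and the time comparison in depleted cells.

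Genes that make or handle histone mRNA and protein were read from lists, taking for each gene the probe set of highest mean. Of 23 genes for histone mRNA processing and transcription, none was called higher and 2 were called lower in the averaged comparison, with a median log2 difference of 0.01. Those 2 were CSTF2, a cleavage stimulation factor subunit, at -0.45 with a limma adjusted p of 0.0278, and SRRT, a partner of the cap-binding complex, at -0.31 with a limma adjusted p of 0.0497. SLBP had mean signals of 890.7 in depleted cells and 1082 in control cells, was lower in 9 of 9 pairs and had a log2 difference of -0.28 with a limma adjusted p of 0.124. NPAT had a log2 difference of 0.13 with a limma adjusted p of 0.735. Without the block neither CSTF2 nor SRRT was called.

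Of 21 histone chaperones, 1 was called higher and none lower, with a median log2 difference of -0.19. The one was ASF1A, an H3-H4 chaperone, at 0.55 ± 0.10 (SE) with a limma adjusted p of 0.00635, higher in 9 of 9 pairs. Of 9 histone variants whose making is not confined to S phase, none was called higher and 2 were called lower, with a median of -0.15. H2AZ2 fell by 0.43 on the log2 scale with a limma adjusted p of 0.0148, and H2AZ1, coding for the same variant type, fell by 0.39 with a limma adjusted p of 0.0485. H2AX, a variant whose tail is phosphorylated at DNA breaks, had a log2 difference of -0.53 with a limma adjusted p of 0.0547. Without the block neither H2AZ gene was called.

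Of 47 DNA replication and S phase genes, none was called higher and 20 were called lower, with a median log2 difference of -0.35. The fit without the block called 7. UHRF1, which links DNA replication to maintenance methylation, stood at -0.77 ± 0.090 (SE) with a limma adjusted p of 0.000353. GINS1 and MCM4, parts of the replicative helicase, had log2 differences of -0.65 and -0.58, and PCNA, the sliding clamp, one of -0.51, each lower in 9 of 9 pairs. The lists' counts stand beside 2.65% higher and 1.9% lower over all probe sets. All 23 processing genes, 21 chaperones and 47 replication genes, and 8 of 9 variants, lay at or above the median level of the table. Of the 27307 probe sets there, 1347 were called higher and 969 lower, so calls were more frequent at such levels. The called H2A and H2B probe sets were higher and the called replication genes lower in the same depleted arrays, and the relation between the replication genes and the histone values was not tested.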

How the data were processed

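The deposited table holds intensity values, 1 signal per probe set and array, which the authors made with MAS5 per the submitters' processing notes (version not given in the sources used here). Each array's trimmed mean (2% off each end) lay between 99.462 and 99.74, so the arrays had been scaled. The values were used without further normalization. After 62 control probe sets were left out, log2(signal + 16) of 54613 probe sets was fitted with limma 3.58.1 in R 4.3.3, with 6 group means and the set as a fixed block, and p-values were Benjamini-Hochberg adjusted over all probe sets at 0.05. Symbols came from the platform annotation.

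The sets pair the arrays: the numbering in the titles runs through the 6 groups once per set (3 titles of set 2 carry a suffix whose meaning is not given), deviations from the group means correlated at 0.179 to 0.398 within sets and at -0.324 to 0.0974 between sets, and 18 of 18 arrays matched their own set best. No 2 arrays were identical. The labels do not say whether arrays are separate cultures. The p-values of the blocked fit therefore measure only the spread between these samples that is left after differences between sets are removed. The number of arrays, 3 per group, limits the precision.

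Named were members called between the media or in the change of that effect, the 10 members of highest mean, the 2 of smallest p in each time comparison, the top probe set of each class, SLBP, NPAT and up to 4 genes per list. Members, lists and rules were chosen with earlier results of these data known. Figures were drawn with matplotlib 3.10.9 from Python 3.11.15. The fit was tested on simulated data.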

Additional observations from a re-analysis of the deposited data

How the results depend on the processing

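With the sets left out as a block, limma called 1 member in the averaged comparison and 0 in the time course of depleted cells; H2BC12 kept its call (adjusted p 0.0434), and H2AC6 (0.0684), H2BC21 (0.0562), H2BC5 (0.169 and 0.152), H4C11 (0.387) and H2AC14 (0.115) did not pass. The averaged count was 4 to 6 over the 18 fits that left out 1 array, 5 without set 2 (1278 calls in all), and 0 without set 1 or without set 3, fits on 2 sets in which all probe sets gave 99 and 87 calls. H4C11 lost its call in 10 of these 18 fits and H2BC5 (222067_x_at) in 6, and both did with 1 added in place of 16 (adjusted p 0.110 and 0.0717). H4C11 and H2AC14 each lost their call when any of the 3 sets was left out. H2AC14 also lost it in 3 of the 18 fits, over which the members called in depleted cells ranged from 0 to 2. The filter at the table's median level, which kept 22 members of 27307 probe sets, gave 8 members in the averaged comparison (4097 calls in all), adding H2BC12L and H2AC25, 1 at 24 h (H2AC4; 646 in all), 3 at 48 h (189), 1 at 72 h (H2BC12; 3631), 1 for the change of effect (H2AC4; 1251) and 2 in depleted cells (2812). Adding 64, and a variance prior that follows the level, each gave 8 averaged (4233 and 3796 in all), 3 at 48 h (335 and 332) and 1 at 72 h (3793 and 3388). At 48 h, leaving out 1 array gave 0 to 1. Among named probe sets, values that turned sign were those of H1-2, H2BC9 and H3C6, none of them called: H1-2 stood at -0.0075 centred on the 75th percentile, at -0.0323 after quantile normalization, and between -0.129 and 0.181 in fits that left out arrays or sets, 5 of them below 0; H2BC9 between -0.0138 and 0.145, and H3C6 (214616_at) between -0.0486 and 0.336, in the same fits. Of the values of named probe sets under alternatives, 385 kept direction and side of the threshold, 43 lost their call, 10 gained one and 10 turned sign. Values that were not called in the reported fit are among the 385. Centring brought the members' averaged median to -0.0022 and that at 24 h to -0.0041, which without one set ranged from -0.0455 to 0.0854. The causes of these shifts were not tested. The blocked and unblocked fits gave no other change of call among the named members. Signals near the table's median, 19.62, are close to where folds are compressed, so small differences of the 29 members below it could not be shown.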

Other observations

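A further 20 probe sets carried several symbols with at least 1 replication-dependent histone among them and were not counted as members. None was called in the averaged comparison by limma, 4 had an unadjusted p under 0.05, and 13 had a difference above 0, with a median of 0.14 on the log2(signal + 16) scale. The probe set 205967_at lists 14 H4 symbols, H4C11 among them. At 24 h its signal was 171.3, 643.1 and 764.8 in depleted cells, against 355.2, 878.5 and 1843.6 in control cells. The 48 h signals were 758.7, 1238.4 and 749.4 in depleted cells, against 882.7, 955.5 and 2210.7 in control cells. The 72 h signals were 487.6, 1280 and 611.1 in depleted cells, against 628.2, 1602.5 and 707.6 in control cells. The groups overlapped at each time. It was lower in depleted cells in 8 of 9 pairs, with an averaged log2 difference of -0.55 ± 0.27 (SE) and a limma adjusted p of 0.316. The 4 other probe sets with the same symbols had averaged log2 differences of -0.45 (208580_x_at), -0.18 (214516_at), -0.13 (207046_at) and 0.24 (208181_at), none of them called by limma. The probe set 207156_at, with several H2A symbols, had an averaged log2 difference of 0.50 ± 0.14 (SE) and a limma adjusted p of 0.0523.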
